A study of Mus musculus with 10 samples.

Results

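The 31 genes described here encode the glycolytic enzymes, the transporters that bring glucose in and carry lactate out, the kinases that steer flux through the pathway, and a group of genes known to respond to low oxygen. They were taken by name, with earlier results of these data known. All 31 were found among the 55494 genes to which the deposited transcripts of sorted leukemia initiating cells could be assigned. The assay was bulk RNA sequencing, with 10 libraries of these cells sorted from spleens of mouse pups aged 13 days that carried the RFP/RET transgene. This fusion oncogene is driven in lymphoid cells by the immunoglobulin heavy chain enhancer (Eμ-Ret mice). The control group was 5 pups that had received 50 µl of PBS, and the treated group was 5 pups that had received 20 µg of Poly(A:U), which is a double-stranded RNA made by synthesis and sensed by the receptor Tlr3. Cells of both groups were taken 7 days after treatment, both groups carried the transgene, and no transgene-free pups were among the samples. The study asked what Poly(A:U) does to these cells. Which surface markers were used for the sort is not given here.

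Glycolysis splits glucose into pyruvate in the cytosol and yields ATP without oxygen. Lactate dehydrogenase then turns pyruvate into lactate and restores the NAD that the pathway consumes. When oxygen is low, the prolyl hydroxylases encoded by the Egln genes no longer mark HIF-1α for destruction, and the stabilised factor binds DNA at the core words ACGTG and GCGTG and raises many genes of the pathway. Proliferating lymphoid and leukemic cells are known for high glycolysis even with oxygen at hand.

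The sequence that separates the pair of pyruvate kinase forms is shown because the share of each form was measured in every library. Pkm, which makes the last enzyme of glycolysis, lies at chr9:59656368-59679375 on the plus strand (GRCm38) and carries a pair of mutually exclusive exons, each 167 bases long and each the ninth exon of its transcript. The exon of the M1 form, typical of muscle and brain, lies at chr9:59675029-59675195, and that of the M2 form, typical of dividing cells, at chr9:59675568-59675734. The exons differed at 64 of the 167 positions when aligned without gaps, and the differing bases are in capitals.
Pkm M1 exon: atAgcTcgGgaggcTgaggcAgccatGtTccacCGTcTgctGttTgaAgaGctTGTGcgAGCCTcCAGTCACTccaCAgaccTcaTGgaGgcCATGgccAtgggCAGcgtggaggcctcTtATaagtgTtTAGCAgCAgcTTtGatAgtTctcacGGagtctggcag
Pkm M2 exon: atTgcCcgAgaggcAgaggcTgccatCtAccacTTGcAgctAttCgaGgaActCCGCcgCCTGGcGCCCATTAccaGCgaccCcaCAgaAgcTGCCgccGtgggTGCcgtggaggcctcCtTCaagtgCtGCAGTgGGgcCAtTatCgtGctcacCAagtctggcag

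Promoters were searched for the HIF core words ACGTG and GCGTG on both strands in the 250 bases before each RefSeq gene start (GRCm38.p6), a palindromic CACGTG being counted on each strand. Of the 31 genes, 30 matched the table, with 44 promoters. At least 1 word was present in 79.5% of these promoters, against 38.6% of the 32851 promoters in the table. ACGTG alone was present in 47.7% of the members' promoters, in 16.6% of all promoters and in 22.9% of all promoters with a GC content at or above the members' median, of which 64.6% held at least 1 of the words. A match is a run of letters and says nothing of binding, and words outside the 250 bases were not counted. The 4 promoters below are shown because they belong to the hypoxia genes Vegfa and Ankrd37, whose levels are described below, and to Ldha and Ldhb, the abundant and the scarce gene of lactate dehydrogenase. Words found are in capitals. The first lies at chr17:46032378-46032627 (minus strand) and held 0 words. For a second listed start of Vegfa, the searched bases lay inside the gene, at chr17:46025164-46025413, and had 2. The Ankrd37 promoter at chr8:45999851-46000100 (minus strand) held 4. The Ldha promoter at chr7:46845554-46845803 (plus strand) held 5, all ACGTG, and the Ldhb promoter at chr6:142507958-142508207 (minus strand) held 1. A second listed start of Ldha, at chr7:46846832-46847081, also had 1, a GCGTG.
Vegfa: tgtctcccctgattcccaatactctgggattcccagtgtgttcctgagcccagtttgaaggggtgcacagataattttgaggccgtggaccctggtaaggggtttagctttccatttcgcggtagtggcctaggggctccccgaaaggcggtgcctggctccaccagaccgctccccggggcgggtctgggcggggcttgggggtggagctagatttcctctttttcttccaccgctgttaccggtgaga
Ankrd37: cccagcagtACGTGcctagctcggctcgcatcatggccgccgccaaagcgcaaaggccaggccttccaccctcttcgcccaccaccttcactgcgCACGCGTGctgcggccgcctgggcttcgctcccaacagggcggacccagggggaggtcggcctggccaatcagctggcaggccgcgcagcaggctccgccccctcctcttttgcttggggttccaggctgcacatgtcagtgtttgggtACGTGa
Ldha: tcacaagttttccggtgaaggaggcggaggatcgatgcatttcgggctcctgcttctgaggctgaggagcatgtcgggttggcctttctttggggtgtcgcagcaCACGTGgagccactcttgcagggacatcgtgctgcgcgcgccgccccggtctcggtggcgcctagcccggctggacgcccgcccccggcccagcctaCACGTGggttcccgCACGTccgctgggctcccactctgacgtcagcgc
Ldhb: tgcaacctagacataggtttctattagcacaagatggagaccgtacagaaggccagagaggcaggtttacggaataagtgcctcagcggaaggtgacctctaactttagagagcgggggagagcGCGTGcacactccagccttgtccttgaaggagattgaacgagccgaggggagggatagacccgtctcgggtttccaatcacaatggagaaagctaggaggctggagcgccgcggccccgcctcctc

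Library totals ran from 17859006 to 22587871 estimated reads. Markers of B cell precursors, the cell type of this leukemia, were abundant in every library, with all 12 above 0 and a summed level of 9250 to 14638 CPM (read counts scaled to a common library size). Some differences between libraries did not follow the treatment. The file names of PBS 1, PBS 2 and PBS 3 share a start that no other library has, and its meaning is not given. Other name parts are shared by PBS 4 and Poly(A:U) 5, by PBS 5 and Poly(A:U) 1, and by Poly(A:U) 3 and Poly(A:U) 4. Their meaning is not given either. In PBS 1 to PBS 3 the 9 erythroid markers summed to 138 to 432 CPM and the 10 neutrophil markers to 735 to 1097 CPM. For the other 7 libraries these sums were 1355 to 12305 CPM and 31.2 to 274 CPM. PBS 4 stood apart by 16032 genes with at least 10 reads, against 13423 to 14723 elsewhere. It also had the highest sum of 8 T cell markers, at 294 CPM against 25.1 to 42.2 CPM, and the lowest sum of B precursor markers. In bulk libraries, fewer cells of a type and less RNA per cell cannot be told apart. The p-values below set differences against the spread between these pups, which the design text describes as separate animals. That spread includes the differences between libraries just given.

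The summed level of the 31 genes was 4140 ± 263 CPM in the PBS libraries and 4173 ± 195 CPM in the Poly(A:U) libraries (SD, n = 5 each), which is 0.386% to 0.458% of a library's reads. PBS 4 had the highest sum, 4583 CPM, and the other 9 libraries reached at most 4365 CPM. The median gene of the set had a highest library 1.51 times its lowest, against 1.70 times for all 13729 genes tested. Genes of at least 10 CPM, however, had a median ratio of 1.38 in the set and 1.52 over all genes.

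Per transcript length, the most abundant member was Mif, a secreted cytokine also known as a HIF target, at a mean of 526 TPM (a length-corrected share of all transcripts, averaged over the 10 libraries). Pkm followed with 414 TPM, Ldha with 362 TPM, the aldolase Aldoa with 353 TPM, Gapdh with 345 TPM and the glucose-6-phosphate isomerase Gpi1 with 341 TPM. The enolase Eno1 stood at 185 TPM, the phosphoglycerate mutase Pgam1 at 166 TPM, and the triose phosphate isomerase Tpi1 and phosphoglycerate kinase Pgk1 both at 133 TPM. The hexokinase Hk1, the entry step of the pathway, had 32.4 TPM and its paralog Hk2 3.16 TPM. Phosphofructokinase was spread over 3 genes, with 28.1 TPM for Pfkp, 25.0 TPM for Pfkl and 6.57 TPM for Pfkm. The lowest mean levels belonged to the lactate exporter Slc16a3 at 0.684 TPM, the prolyl hydroxylase Egln3 at 0.965 TPM, the regulatory kinase Pfkfb4 at 2.11 TPM and the brain-type aldolase Aldoc at 2.46 TPM. Ldhb had a mean of 4.50 TPM (SD 10.6), which PBS 4 carried, and was below Aldoc and Pfkfb4 in CPM in 8 of the 10 libraries.

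The effect of Poly(A:U) was tested by edgeR (quasi-likelihood) over all genes, with Benjamini-Hochberg adjustment and a threshold of 0.05. All 31 genes passed the filter on low counts, and 0 of 31 was called, where 0% of all 13729 genes were called and the smallest adjusted p was 0.677. An unadjusted p under 0.05 was reached by 5 of the 31 genes, of which 2 were higher in Poly(A:U) and 3 lower, against 7.3% of all genes. The log2 fold change (Poly(A:U) minus PBS) was above 0 for 13 members and below 0 for 18, with a median of -0.04, where 49.4% of all genes were above 0 and their median was -0.00. DESeq2 called 0 members and 13 genes in all, 0.0947% of those tested, and gave no p-value for Ldhb. limma voom with quality weights, which gives less weight to libraries that deviate, called 4 members (Vegfa, Ankrd37, Hk1 and Slc16a1) and 932 genes, 6.79% of those tested.

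For 25 of the 31 genes (80.6%) the 95% interval of the fold change lay within 2-fold in either direction, against 82.7% of all genes. Of the 24 members of at least 10 CPM, 23 (95.8%) had such an interval, against 97.4% of all genes of at least 10 CPM. Vegfa was the exception with 1.09-fold to 2.15-fold. Among the 7 members under 10 CPM there were 2, Hk2 and Pfkfb4. In simulated libraries of the same size the test called 33.3% of genes changed 1.5-fold, 67.2% of those changed 2-fold and 89.9% of those changed 4-fold. Those libraries were drawn independently, without libraries that deviate together or singly as some did here. The rates therefore need not hold for these data.

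**Figure D1:**
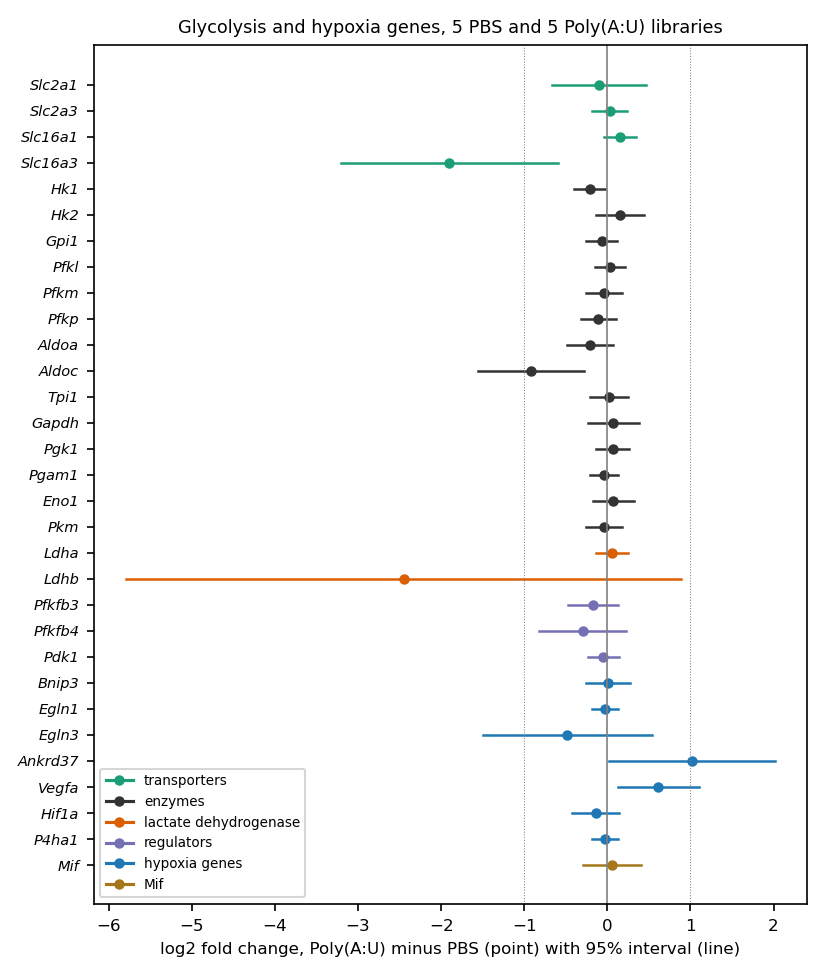
The log2 fold change of each of the 31 genes, Poly(A:U) minus PBS (n = 5 libraries each), with its 95% interval from edgeR's quasi-likelihood fit, coloured by role; dotted lines mark 2-fold. Most intervals lie between the dotted lines around 0, and the widest are those of the scarce genes Ldhb, Slc16a3, Egln3 and Ankrd37.

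Transporters came first along the pathway. Slc16a1, which encodes the lactate and pyruvate carrier MCT1 (chr3:104638668-104658462), was the most abundant at 93.4 TPM. Its levels in PBS 1 to PBS 5 were 250, 232, 249, 304 and 279 CPM, and in Poly(A:U) 1 to 5 they were 283, 274, 290, 322 and 321 CPM. PBS 1 to PBS 3 lay below every other library, while PBS 4 and PBS 5 lay inside the Poly(A:U) range. Slc16a1 differed by a log2 fold change of 0.15 ± 0.09 (SE, edgeR adjusted p = 0.695), and voom with quality weights gave 0.23 with an adjusted p of 0.0493. Without PBS 1 to PBS 3 the edgeR estimate was 0.00 ± 0.10.

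Slc16a3, which encodes the lactate exporter MCT4 (chr11:120948480-120960868), was scarce, with 2 to 51 reads per library. It stood at 1.07, 1.46, 1.44, 2.51 and 0.189 CPM in the PBS libraries and at 0.111, 0.576, 0.568, 0.336 and 0.182 CPM in the Poly(A:U) libraries. PBS 1 to PBS 4 were above all treated libraries, and PBS 5 was among them. For Slc16a3 the log2 fold change was -1.90 ± 0.60 (edgeR adjusted p = 0.677). Of 9 macrophage markers, Lyz2 and Mpeg1 were higher in PBS 1 to PBS 4 than in all other libraries, and the other 7 were not. PBS 4 was the highest library for 7 of the 9. The 9 had sums of 137 to 178 CPM for PBS 1 to PBS 4, against 41.3 to 62.2 CPM for PBS 5 and the Poly(A:U) libraries, all 9 being above 0 in every library, and Lyz2, a lysozyme gene that neutrophils also express, made up 107 to 141 CPM of the sums of PBS 1 to PBS 3. Without PBS 1 to PBS 3 the Slc16a3 estimate was -1.93 ± 0.91. The part of macrophages in the Slc16a3 difference was not tested.

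Of the glucose carriers, Slc2a1 (GLUT1) had 48.4 CPM in PBS 4 and 18.0 to 26.3 CPM in the other 9 libraries. Slc2a3 (GLUT3) ranged from 22.8 to 32.8 CPM. Slc2a1 differed between the groups by -0.10 ± 0.26 on the log2 scale (edgeR adjusted p = 0.927), and by 0.28 without PBS 4.

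The 14 enzyme genes from hexokinase to pyruvate kinase were split between 6 with a log2 fold change above 0 and 8 below, and 13 of the 14 intervals lay within 2-fold. Hk1 (chr10:62268855-62379908) had 107, 103, 110, 90.0 and 85.9 CPM in the PBS libraries and 93.5, 85.5, 84.1, 83.4 and 89.1 CPM in the Poly(A:U) libraries. The 3 PBS libraries with the shared name start were the highest of the 10, and the other 2 PBS libraries overlapped the treated ones. The log2 fold change was -0.21 ± 0.09 (edgeR adjusted p = 0.677), and voom with quality weights gave -0.29 with an adjusted p of 0.0320. Without PBS 1 to PBS 3 it was -0.04 ± 0.10, and with a term for every shared part of the library names 0.00. Only the name parts of PBS 4 and Poly(A:U) 5 and of PBS 5 and Poly(A:U) 1 hold both groups. The estimate with all name parts therefore rests on those libraries alone.

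Aldoc (chr11:78322968-78327781) was the 1 member of the 31 whose groups did not overlap, where 0.947% of all genes had groups apart. It had 3.18, 3.98, 3.15, 6.83 and 3.44 CPM in the PBS libraries and 1.73, 3.01, 2.65, 1.51 and 2.19 CPM in the Poly(A:U) libraries. Poly(A:U) 2, the highest treated library, and PBS 3, the lowest control, were close, and PBS 4 was far above the rest. Aldoc differed by a log2 fold change of -0.91 ± 0.29 (edgeR adjusted p = 0.677). It was -0.64 ± 0.24 without PBS 4 and -1.24 ± 0.39 without PBS 1 to PBS 3. Aldoa, which supplied 98.8% to 99.7% of the aldolase TPM, had 399 ± 66.4 CPM in the PBS libraries and 353 ± 35.3 CPM in the Poly(A:U) libraries, with PBS 4 highest at 514 CPM.

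Pkm had 711, 690, 732, 861 and 672 CPM in the PBS libraries and 731, 760, 724, 759 and 654 CPM in the Poly(A:U) libraries. PBS 4 was highest, and the other libraries of the groups were interleaved, with a log2 fold change of -0.04 ± 0.10 (edgeR adjusted p = 0.925). The remaining enzymes overlapped between the groups in the same way. Gpi1 ranged from 378 to 458 CPM, Pgam1 from 195 to 231 CPM, Pgk1 from 158 to 202 CPM and Tpi1 from 131 to 180 CPM. Hk2 lay between 7.84 and 11.9 CPM, Pfkl between 59.6 and 74.5 CPM, Pfkp between 43.8 and 68.3 CPM, and Pfkm between 12.9 and 16.3 CPM.

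The levels of Gapdh, Eno1 and Pgk1 depended on how reads were shared with near-identical copies elsewhere in the genome. For Gapdh, which makes glyceraldehyde-3-phosphate dehydrogenase, 43 annotated genes, 41 of them pseudogenes, shared at least 50% of their 31-base words with it. These copies held a mean of 1109 CPM, against 160 CPM for Gapdh itself. The gene's own share of the pooled reads ran from 9.49% in PBS 4 to 15.5% in Poly(A:U) 2. With the copies added, the level was 1293 ± 260 CPM in the PBS libraries and 1245 ± 101 CPM in the Poly(A:U) libraries, and the mean rose from 345 to 1835 TPM, above Mif with its own copies at 642 TPM. The Gapdh log2 fold change moved from 0.07 to -0.08. Eno1 held 35.1% to 42.8% of the reads pooled with its 2 copies, one of them Eno1b, and Pgk1 held 56.0% to 74.2% of those pooled with its 3. A ranking of the enzymes by single-gene level is therefore uncertain for these 3 genes, and 0 members were called with the copies added.

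**Figure D2:**
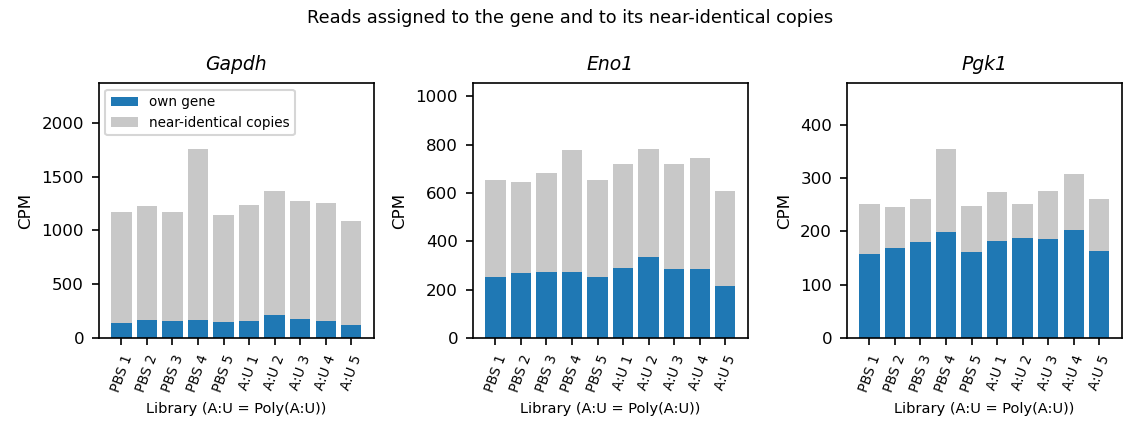
CPM assigned in each library to Gapdh, Eno1 and Pgk1 (blue) and to their near-identical copies (grey, stacked on top). For Gapdh the copies held most of the pooled reads in every library, and PBS 4 had the highest total at 1755 CPM.

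Lactate dehydrogenase was almost wholly of the A type. Ldha (chr7:46841475-46855627), the form that favours lactate production, had 382, 371, 416, 434 and 375 CPM in the PBS libraries and 405, 405, 423, 476 and 386 CPM in the Poly(A:U) libraries. The groups overlapped throughout, with a log2 fold change of 0.06 ± 0.09 (edgeR adjusted p = 0.874). Ldhb, the heart-type subunit, had 0.586, 0.448, 0.320, 34.5 and 0.895 CPM in the PBS libraries and 0.669, 0.665, 1.04, 0.728 and 3.92 CPM in the Poly(A:U) libraries. PBS 4 had 51.6 times the median of the other 9 libraries, Poly(A:U) 5 was next, and the remaining 8 were near or below 1 CPM. The fitted difference of -2.45 ± 1.47 rested on PBS 4 and was 1.27 without it, neither being called by edgeR (adjusted p = 0.700 with all libraries). The names of PBS 4 and Poly(A:U) 5 share a part, as given above. The T cell marker sum was highest in the same libraries, namely PBS 4 with 294 CPM and Poly(A:U) 5 with 42.2 CPM. Of the 8 markers, 5 were highest in PBS 4, namely Cd3e, Cd3g, Cd4, Lck and Trbc1, and Cd3d, Cd8a and Cd2 were not. Cd3e, a part of the T cell receptor complex, reached 53.9 CPM and 2.97 CPM in these libraries in turn and did not exceed 0.533 CPM in the other 8, with 0 reads in 3 of them. Cd3d, of the same complex, reached 0.148 CPM and 0.0912 CPM there, against 0.0886 to 1.17 CPM in the other 8. For Eno2, the neuronal enolase, PBS 4 had 21.1 CPM, Poly(A:U) 5 had 1.14 CPM, and the other 8 libraries had 0 reads. The part of other cell types in these levels was not tested.

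The shares of paired forms were compared per length, as the TPM of one form over the sum, with an exact two-sided permutation test whose smallest possible p is 0.00794. Of 11 shares, 0 had an adjusted p under 0.05, and the smallest, for Aldoa of aldolase and Slc16a1 of the lactate carriers, was an exact p of 0.0635 (adjusted 0.349). Pkm M2 made up 95.9%, 96.3%, 95.9%, 93.5% and 95.9% of the M1 and M2 transcripts in PBS and 95.9%, 96.9%, 96.0%, 96.3% and 93.4% in Poly(A:U). The lowest library of each group was PBS 4 or Poly(A:U) 5, and the groups did not separate (exact permutation p = 0.603). The A type was 91.3% of lactate dehydrogenase TPM in PBS 4, 98.8% in Poly(A:U) 5 and 99.7% to 99.9% in the other 8 libraries. Hk1 supplied 85.7% to 95.4% of the hexokinase TPM of the Hk1 and Hk2 pair. Pfkl supplied 40.9% ± 2.00 of phosphofructokinase TPM in PBS and 43.4% ± 4.79 in Poly(A:U) (SD, n = 5), where Poly(A:U) 2 was highest at 51.6%.

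**Figure D3:**
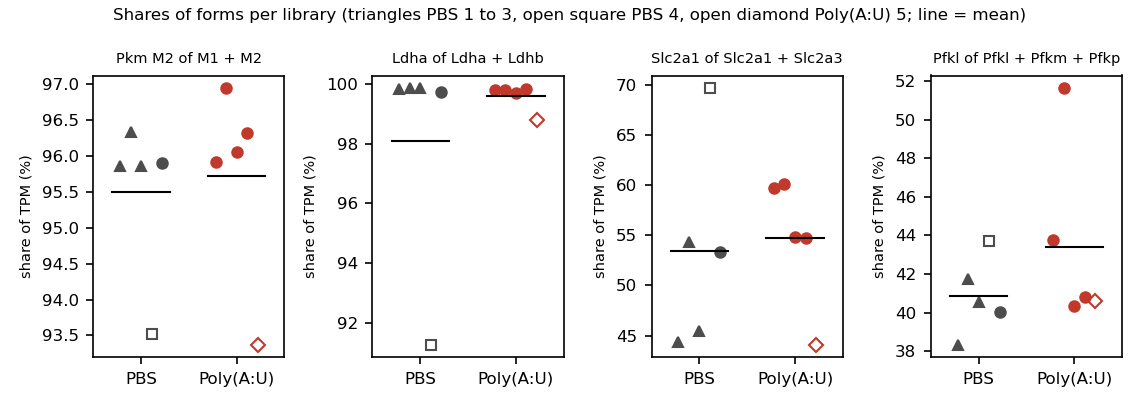
Share of the TPM of 4 pairs or groups of forms taken by Pkm M2, Ldha, Slc2a1 and Pfkl in each library, with group means as lines; the vertical axes do not start at 0. The low Pkm M2 and Ldha shares are those of PBS 4 (open square) and Poly(A:U) 5 (open diamond), in both panels.

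The 3 regulators had a log2 fold change below 0 with all libraries and treatment as the only term, and above 0 without PBS 1 to PBS 3 (0.061 for Pfkfb3, 0.31 for Pfkfb4 and 0.032 for Pdk1). Pfkfb3, which makes the activator of phosphofructokinase and was the most abundant of them, had 208, 191, 158, 121 and 166 CPM in the PBS libraries and 166, 112, 151, 158 and 177 CPM in the Poly(A:U) libraries. PBS 1 and PBS 2 were highest, and the rest of the PBS group lay among the treated libraries, with a log2 fold change of -0.17 ± 0.14 (edgeR adjusted p = 0.742). Pfkfb4 had 5.47 ± 1.76 CPM in the PBS libraries and 4.53 ± 0.956 CPM in the Poly(A:U) libraries, with PBS 1 to PBS 3 at 6.40 to 7.11 CPM and the other 7 at 3.53 to 6.06 CPM. Pdk1, the kinase that keeps pyruvate out of the mitochondrial dehydrogenase complex, ranged from 42.9 to 55.9 CPM.

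Vegfa, the angiogenic growth factor and a classical HIF target (chr17:46016993-46032369), was the hypoxia gene with the highest level per length (38.8 TPM) and is the gene whose promoter is printed first above. It had 43.2, 41.7, 45.6, 58.3 and 100 CPM in the PBS libraries and 102, 80.6, 78.3, 97.5 and 92.9 CPM in the Poly(A:U) libraries. PBS 1 to PBS 4 lay below all treated libraries, and PBS 5 lay above 4 of the 5. The highest libraries, Poly(A:U) 1 and PBS 5, share a name part. The log2 fold change was 0.61 ± 0.22, which is 1.53-fold (edgeR adjusted p = 0.677). It was 0.89 with an adjusted p of 0.0283 without PBS 5, where 0.13% of all genes were called, and 0.80 with an adjusted p of 0.0347 in voom with quality weights. With a covariate that marks PBS 1 to PBS 3 it was 0.16 ± 0.17 (edgeR adjusted p = 0.977), and without those 3 libraries 0.16 (adjusted p = 0.992). Both fits compare the treated libraries with PBS 4 and PBS 5 alone, so they are not separate checks.

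Ankrd37, a small ankyrin-repeat gene also known as a HIF target (chr8:45996902-46005707), was scarce, with 12 to 104 reads per library. It had 0.782, 0.784, 0.640, 1.82 and 2.50 CPM in the PBS libraries and 1.84, 4.61, 3.41, 2.24 and 1.28 CPM in the Poly(A:U) libraries. PBS 1 to PBS 3 were the lowest of the 10, and PBS 4 and PBS 5 lay inside the treated range. The log2 fold change was 1.02 ± 0.46 (edgeR adjusted p = 0.679), and 1.58 with an adjusted p of 0.0307 in voom with quality weights. Without PBS 1 to PBS 3 it was 0.30 ± 0.53, and with a term for every shared name part it was -0.52. The latter estimate rests on PBS 4, PBS 5, Poly(A:U) 1 and Poly(A:U) 5, whose name parts hold both groups.

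The oxygen sensing genes Hif1a and Egln1 overlapped between the groups. Hif1a, the regulated subunit of HIF-1, had 80.5 ± 8.64 CPM in the PBS libraries and 75.0 ± 17.1 CPM in the Poly(A:U) libraries, ranging from 56.6 to 101 CPM. Its transcript level is not a measure of the protein, which is set mainly by degradation. Egln1, the main HIF prolyl hydroxylase, had 59.0 ± 3.01 and 59.0 ± 1.84 CPM. Egln3 had 0.733, 1.46, 1.44, 5.75 and 1.60 CPM in the PBS libraries and 1.62, 1.51, 1.66, 1.90 and 1.41 CPM in the Poly(A:U) libraries. PBS 4 was the single high library, and the difference of -0.48 ± 0.47 (edgeR adjusted p = 0.792) was 0.29 without it. The mitophagy receptor Bnip3 ranged from 19.6 to 29.4 CPM and the collagen prolyl hydroxylase P4ha1 from 45.4 to 55.5 CPM. Mif had 131, 154, 155, 209 and 136 CPM in the PBS libraries and 156, 206, 161, 178 and 129 CPM in the Poly(A:U) libraries. PBS 4 and Poly(A:U) 2 were its highest libraries, one in each group, and the log2 fold change was 0.05 ± 0.16 (edgeR adjusted p = 0.939).

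**Figure D4:**
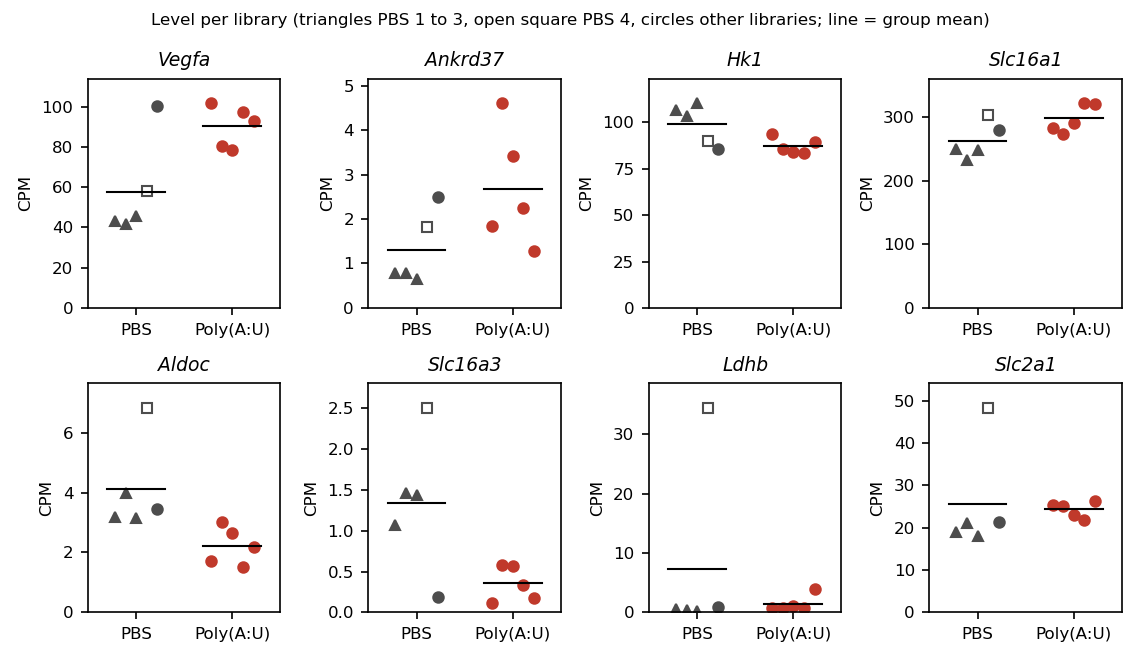
CPM of 8 of the 31 genes in each of the 5 PBS (grey) and 5 Poly(A:U) (red) libraries, with the group mean as a line and axes from 0. In Vegfa, Ankrd37, Hk1 and Slc16a1 the triangles (PBS 1 to PBS 3) lie apart from all other libraries, and in Ldhb and Slc2a1 the open square (PBS 4) is far above the rest.

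The spread inside the PBS group was described by the term for the shared name start, which compares PBS 1 to PBS 3 with PBS 4 and PBS 5. It called 77 genes in edgeR, 0.561% of those tested, and 0 of the 31. An unadjusted p under 0.05 was reached by 8 members against 18.7% of all genes. These were Vegfa, Ankrd37, Slc16a1, Slc2a1, Ldhb and Egln3, lower in PBS 1 to PBS 3, and Hk1 and Pfkfb4, higher there. For Vegfa the difference was -0.87 ± 0.18 on the log2 scale (edgeR adjusted p = 0.0568) and for Pfkfb4 it was 0.90 ± 0.25 (adjusted p = 0.113). PBS 1 to PBS 3 did not overlap the other 7 libraries in 7 members, against 11.2% of all genes, with 5 below and 2 above.

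This term depended on single libraries. Leaving out PBS 4 or PBS 5 leaves 1 library to set against PBS 1 to PBS 3, and that lone library is assumed to vary like the others. Without PBS 4, where 0.158% of all genes were called, Vegfa was the 1 member called, at -1.20 (edgeR adjusted p = 0.0100). Without PBS 5, where 12.2% were called, the comparison is of PBS 4 alone with PBS 1 to PBS 3. It then called Slc2a1 at -1.36 (edgeR adjusted p = 0.000302), Ldhb at -6.27 (adjusted p = 0.0011) and Egln3 at -2.28 (adjusted p = 0.00393). PBS 4 was the highest of the 10 libraries in 10 of the 31 genes, against 17% of all genes. The 10 were Aldoa, Aldoc, Tpi1, Pgam1, Pkm, Ldhb, Slc2a1, Slc16a3, Egln3 and Mif. Erythroid and neutrophil marker sums moved with the name start, as given above, and their part in these differences was not tested.

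**Figure D5:**
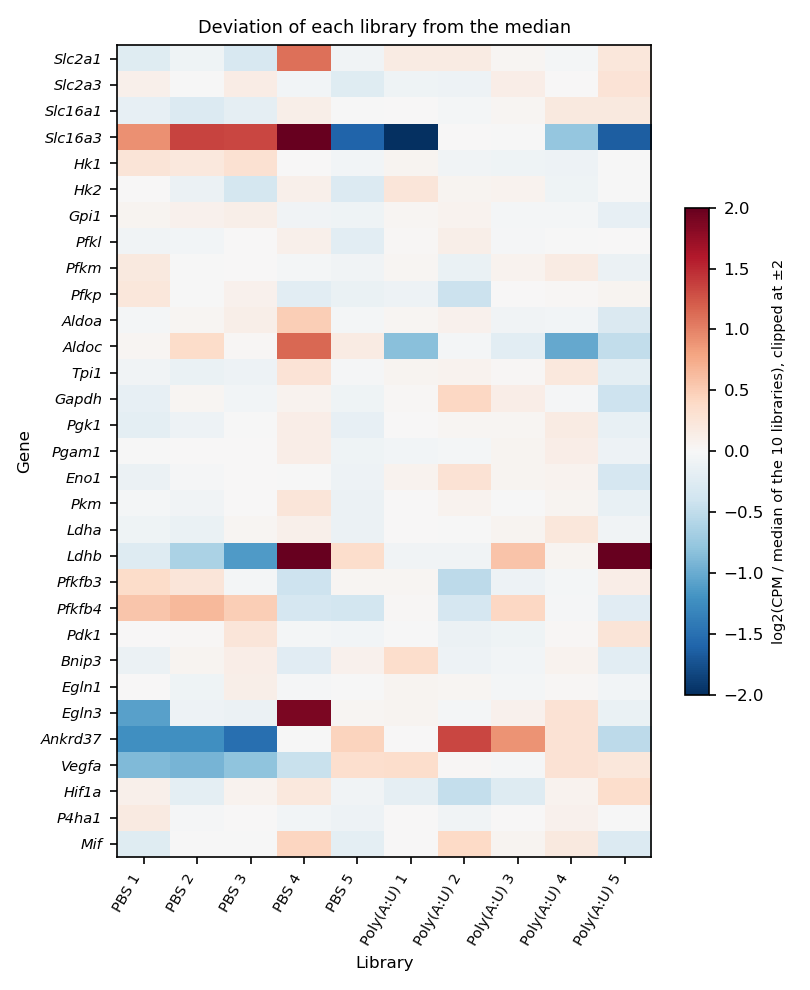
Level of each of the 31 genes in each library relative to the gene's median over the 10 libraries (log2 scale, red above, blue below, clipped at ±2). The PBS 4 column is red in Ldhb, Slc16a3, Egln3, Aldoc and Slc2a1, and the first 3 columns are blue in Vegfa and Ankrd37.

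Other genes of the same pathways were read from the same fit. Of 32 further glycolysis and pyruvate genes, 25 passed the filter, with 15 above 0, 10 below, a median of 0.05 and 0 called. Voom with quality weights called 1 of them, Pdp2, at 0.58 (adjusted p = 0.0287), where 6.79% of all genes were called. The unadjusted edgeR p was under 0.05 for 2 of the 25, against 7.3% of all genes. Pdp2, a phosphatase that reactivates pyruvate dehydrogenase, differed by 0.52 ± 0.16 (edgeR adjusted p = 0.677), with 10.1 to 14.8 CPM in the PBS libraries and 14.3 to 24.6 CPM in the Poly(A:U) libraries. PBS 1 to PBS 3 were the lowest of all libraries at 10.1 to 11.7 CPM, and PBS 4 and PBS 5 had 14.2 and 14.8 CPM. Hk3, the hexokinase of myeloid cells, differed by -1.72 ± 0.60 (edgeR adjusted p = 0.677). Hk3 had 2.39 to 2.86 CPM in PBS 1 to PBS 3, the libraries with the highest neutrophil sums, and 0.167 to 0.952 CPM elsewhere. The part of neutrophils in the Hk3 levels was not tested.

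Of 32 further hypoxia response genes, 26 passed the filter, with 17 above 0, 9 below, a median of 0.06 and 0 called. Voom with quality weights called 2 of these 26, where 6.79% of all genes were called. They were Wsb1 at 0.74 (adjusted p = 0.0287) and Car12 at 0.75 (adjusted p = 0.0346). An unadjusted edgeR p under 0.05 was reached by 3 of the 26, all higher in Poly(A:U), against 7.3% of all genes. Wsb1, a ubiquitin ligase component known as a HIF target, had 48.8, 56.6, 50.0, 56.0 and 109 CPM in the PBS libraries and 91.5 to 101 CPM in the Poly(A:U) libraries. As for Vegfa, PBS 1 to PBS 4 were below all treated libraries and PBS 5 was not, and the log2 fold change of 0.58 ± 0.19 (edgeR adjusted p = 0.677) became 0.85 without PBS 5 (adjusted p = 0.00326). Ero1l, an oxidase of the endoplasmic reticulum, had 27.2 to 30.8 CPM in the PBS libraries and 31.9 to 38.6 CPM in the Poly(A:U) libraries. It was the 1 gene of the 26 whose groups did not overlap, against 0.947% of all genes. Ero1l differed by 0.24 ± 0.07 (edgeR adjusted p = 0.677). Car12, a carbonic anhydrase, differed by 0.58 ± 0.23 (edgeR adjusted p = 0.677). The name start term called Cited2, a HIF competitor, at -0.88 (edgeR adjusted p = 0.0212) and Egln2, a further prolyl hydroxylase, at -0.70 (adjusted p = 0.0481), both lower in PBS 1 to PBS 3. Of all genes, 0.561% were called by this term. With RLE factors the Egln2 call was lost (edgeR adjusted p = 0.0515) and the Cited2 call was kept (adjusted p = 0.0234). Leaving out PBS 1, PBS 2 or PBS 3 ended both calls, with edgeR adjusted p-values of 0.0879 to 0.123 for Cited2 and 0.105 to 0.188 for Egln2. Leaving out PBS 4 or PBS 5 leaves a lone library to set against PBS 1 to PBS 3. The estimates without PBS 4 were -0.88 for Cited2 and -0.56 for Egln2, and without PBS 5 they were -0.88 and -0.83.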

How the data were processed

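Bulk RNA sequencing of 10 libraries was used, 5 per group. Per the file headers, the authors deposited estimated counts and TPM per transcript for each library, and a series table of a normalized signal per gene, named as CPM. DRAGEN, the mouse build mm10 and edgeR 3.38.4 appear in the submitters' processing notes. Neither the annotation release nor the use of strand is given in the sources used here, and reads of overlapping or antisense genes are uncertain.

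Transcripts were assigned to genes with GENCODE M21 (GRCm38), which left 538 of them out, with 0.046% to 0.0695% of a library's reads. Estimated counts were summed per gene and rounded, and TPM was summed. Of 2 gene identifiers named Aldoa, the main gene was used. Genes were kept by filterByExpr (minimum count 10). Groups were compared in R 4.3.3 with edgeR 4.0.16 (quasi-likelihood test, robust, TMM factors of 0.959 to 1.047), two-sided, with Benjamini-Hochberg adjustment over 13729 genes. Standard errors and 95% intervals come from the same fit.

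The members, lists and tests were chosen with earlier results of these data known. Values in every library are given for members with an unadjusted p under 0.05, the most abundant of each role, the 3 with the widest range, and those called by another test with all libraries. Slc2a1, Pfkfb4, Aldoa, Gapdh, Eno2, Cited2 and Egln2 were added after their values were seen.

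Alternatives were RLE factors, DESeq2 1.42.0, limma 3.58.1 (voom with quality weights), no filter, a filter of 10 CPM in 5 libraries, a replicate block, name-part terms, each library left out, PBS 1 to PBS 3 left out, the authors' deposited CPM table (log2 of CPM + 1), and near-identical copies added (chosen after seeing the data). On simulated data with 200 changed genes of 13729, in 3 sets for this comparison, 6.86% of the edgeR calls were false, against 21.2% for DESeq2 and 6.48% for voom. The simulated libraries were drawn independently, so these rates need not hold for the real ones. Same-numbered libraries did not deviate together. The labels do not say whether the replicate numbers pair the pups, and the main test used no pairing.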

Additional observations from a re-analysis of the deposited data

Results flagged for a closer look

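In 16 of 84 sets of 5 values, the members' CPM and the shares of forms in each group, the highest or lowest library was separated from the rest by a gap of more than 0.71 of the range (Dixon's 95% critical value). For independent sets of normally distributed values, chance gives about 1 in 20. The sets here overlap, because shares are built from genes also counted by CPM, so the count cannot be set against that rate. Of the 16, 9 were in PBS 4. These were Ldhb at 34.5 CPM (the other PBS libraries at 0.320 to 0.895), Slc2a1 at 48.4 CPM, Egln3 at 5.75 CPM, Aldoc at 6.83 CPM, Aldoa at 514 CPM, Tpi1 at 180 CPM, the Ldha share at 91.3%, the Egln1 share of the prolyl hydroxylases at 89.0% and the Pkm M2 share at 93.5%. Poly(A:U) 5 had 3, Ldhb at 3.92 CPM, the Ldha share at 98.8% and the Pkm M2 share at 93.4%. The remaining 4 were Vegfa at 100.4 CPM in PBS 5, Pdk1 at 55.2 CPM in PBS 3, Pfkm at 16.3 CPM in PBS 1 and Pfkl at 74.5 CPM in Poly(A:U) 2.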

How the results depend on the processing

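Of the 31 members, edgeR called 0 with RLE factors, without a filter, with the name-part terms, without PBS 1 to PBS 3 and with copies added. The 10 CPM filter kept 25 members, and edgeR called 0 of these. In the authors' deposited table, limma called 0 members. DESeq2 called 0 members and 13 genes in all, with no p-value given for Ldhb. Voom with quality weights called 932 genes and 4 members. Leaving out each library in turn gave 0 to 18 genes and 0 to 1 members called (Vegfa, without PBS 5), and 8 to 16 members higher. The term for the name start then called 3 to 1701 genes and 0 to 3 members. With the replicate number as a block, edgeR called 0 members, and Ldhb became 0.12 and Slc2a1 0.018. Same-numbered libraries had correlations from -0.1965 to 0.1746, and 1 of 10 libraries was closest to its own number. Whether the numbers pair pups is not given.

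Several log2 fold changes changed sign, with 0 of the changed values being called. In voom, Pkm became 0.020, Ldhb 0.65, Slc2a1 0.17 and Egln3 0.29. With the name start as a covariate, Pfkfb3 became 0.057, Pfkfb4 0.31, Slc16a1 -0.0047 and Mif -0.091. With all name parts, Hk1 became 0.0013, Pfkfb3 0.22, Pfkfb4 0.20, Gapdh -0.23, Pgk1 -0.10, Eno1 -0.13, Ldha -0.081, Slc16a1 -0.0025, Ankrd37 -0.52 and Mif -0.31. Without PBS 1 to PBS 3, Pfkfb3 became 0.061, Pfkfb4 0.31 and Mif -0.084. In the deposited table Slc2a1 was 0.11. With copies added, Gapdh was -0.082 and Pgk1 -0.019. Over all 31 members, 14 changed sign with all name parts, 10 with the name start, 9 without PBS 1 to PBS 3 and 7 in voom. The fit with all name parts compares the groups only through PBS 4, PBS 5, Poly(A:U) 1 and Poly(A:U) 5. The name start fit and the fit without PBS 1 to PBS 3 both compare the treated libraries with PBS 4 and PBS 5 alone.

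Leaving out each library in turn gave ranges that crossed 0 for Gapdh (-0.065 to 0.17), Eno1 (-0.022 to 0.16), Pkm (-0.083 to 0.033), Ldhb (-3.29 to 1.27), Slc2a1 (-0.21 to 0.28), Egln3 (-0.71 to 0.29) and Mif (-0.064 to 0.19). Differences in shares, in percentage points, did so for Hk1 (-1.72 to 0.38), Pfkm (-0.078 to 0.46), Ldha (-0.23 to 1.92), Slc2a1 (-1.01 to 5.33), Pfkfb3 (-0.27 to 0.64), Egln1 (-0.62 to 1.75) and Pkm M2 (-0.27 to 0.81). Without PBS 1 to PBS 3 the share differences were 0.70 for Hk1, -6.81 for Slc2a1 and -0.95 for Pfkfb3, and from reads not corrected for length -0.063 for Pfkm and -0.32 for Slc2a1. The cause of these changes was not tested. Depth was lowest for Slc16a3, Ldhb and Ankrd37, with as few as 2, 6 and 12 reads in a library.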
